A study of Mus musculus with 44 samples.

Results

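Myeloid granule genes and C/EBP transcription factor genes were followed in a time course of mouse progenitors that were moved toward the B lineage. The 9 genes were chosen by name: Mpo, Elane, Prtn3, Ctsg and Lyz2, which encode granule proteins, and Cebpa, Cebpb, Cebpd and Cebpe, which encode C/EBP factors. They are 9 of the 23234 genes of the deposited table, and the rule that lists them uses names and no measured value. Of these, 6 passed the filter on low values and were tested (Mpo, Prtn3, Lyz2, Cebpa, Cebpb and Cebpd).

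The libraries were made from poly(A) RNA of induced leukocyte stem (iLS) cells, fetal liver progenitors of strain C57BL/6J that stay multipotent while Id3-ERT2, a fusion of Id3 to a domain that responds to 4-hydroxytamoxifen (4-OHT), is active. All groups carried Id3-ERT2 and were grown with TSt-4 feeder cells. For growth, IL-7 was given at 20 ng/mL, SCF and Flt-3L were each given at 10 ng/mL, and the 4-OHT dose was 40 nM. Differentiation was started by leaving out 4-OHT and lowering IL-7 to 5 ng/mL. Triplicate libraries (3 per time) covered 0, 0.5, 1, 2, 4, 6, 8, 10, 12, 24, 48, 72, 96 and 144 h after that change. With the unreplicated libraries of 120 and 168 h they numbered 44. The labels do not say whether replicates were separate cultures, so the p-values rest on a spread between libraries that may be technical. Nor do they say whether RNA was taken after the feeder had been depleted. Fewer cells of a type cannot be told apart from less RNA per cell.

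Values are FPKM (fragments normalised to transcript size and library size), so levels can be set side by side between genes. Sequencing depth is unknown because the table holds no counts. Changes are differences of log2(FPKM + 1) with their SE from limma, and a gene was called at a Benjamini-Hochberg adjusted p under 0.05 over the 13907 genes tested. Adding 1 FPKM understates the change of a gene with low values. The summed FPKM of a library lay between 516025 and 701705, and 11520 to 12316 genes reached 1 FPKM.

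C/EBP proteins are leucine zipper factors that bind DNA as dimers. C/EBP-alpha is needed for progenitors to enter the granulocyte and monocyte path, and C/EBP-epsilon acts later, in the maturation of granulocytes. C/EBP-beta and C/EBP-delta respond to cytokines and stress in many tissues and are also expressed in fibroblasts and fat cell precursors. Myeloperoxidase (Mpo) and the serine proteases neutrophil elastase (Elane), proteinase-3 (Prtn3) and cathepsin G (Ctsg) are stored in the primary granules that form at the promyelocyte stage. Lysozyme M (Lyz2) is made by monocytes, macrophages and granulocytes.

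The promoters of 7 of the 9 genes (all but Cebpd and Cebpe) were found in the RefSeq promoter table for GRCm38.p6, while the deposited values were made on mm9, and the 250 bases upstream of the start site were searched on both strands. The letters searched were TTGCNNAA for C/EBP, TGACG for the core of the site of CREB and ATF factors, GAGGAA for ETS factors such as PU.1, TGNGGT for RUNX, TATAAA for the TATA box and CCAAT. Those for Prtn3, Elane, Mpo and Cebpb are shown because the first 2 are neighbours with 0 genes between them and only Prtn3 passed the filter, Mpo had the highest mean of the 4 primary granule genes at 0 h, and Cebpb had the highest level of the C/EBP genes. The windows are chr10:79879417-79879666 (Prtn3), chr10:79886062-79886311 (Elane), chr11:87793534-87793783 (Mpo) and chr2:167688665-167688914 (Cebpb), all on the plus strand. Capitals mark GAGGAA in the granule genes and TGACG or its reverse complement in Cebpb.
Prtn3: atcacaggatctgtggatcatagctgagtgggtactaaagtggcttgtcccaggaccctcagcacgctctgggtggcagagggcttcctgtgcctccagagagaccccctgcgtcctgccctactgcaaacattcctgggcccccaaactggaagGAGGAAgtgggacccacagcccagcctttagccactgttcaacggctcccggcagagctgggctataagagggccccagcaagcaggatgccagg
Elane: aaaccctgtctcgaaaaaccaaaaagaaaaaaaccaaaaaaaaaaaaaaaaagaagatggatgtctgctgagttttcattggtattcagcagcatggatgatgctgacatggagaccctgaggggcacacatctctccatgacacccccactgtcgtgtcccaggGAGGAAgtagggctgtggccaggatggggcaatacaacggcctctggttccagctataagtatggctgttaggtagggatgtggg
Mpo: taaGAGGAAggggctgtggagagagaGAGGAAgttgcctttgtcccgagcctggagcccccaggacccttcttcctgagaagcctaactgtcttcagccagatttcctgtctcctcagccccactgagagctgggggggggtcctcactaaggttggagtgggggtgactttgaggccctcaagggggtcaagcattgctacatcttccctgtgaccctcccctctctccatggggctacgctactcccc
Cebpb: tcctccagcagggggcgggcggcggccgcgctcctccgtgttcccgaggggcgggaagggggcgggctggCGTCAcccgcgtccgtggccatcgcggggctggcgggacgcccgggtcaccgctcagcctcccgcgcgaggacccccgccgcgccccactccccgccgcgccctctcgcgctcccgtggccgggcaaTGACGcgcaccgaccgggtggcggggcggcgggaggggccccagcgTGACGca

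GAGGAA was found in each of the 4 promoters of the primary granule genes. Counted from the RefSeq start, a match began at -95 in Prtn3, at -85 in Elane, at -247 and at -224 in Mpo and at -216 in Ctsg. The same letters occurred in 23.3% of 32817 promoters of this length. Cebpb held TGACG or its reverse complement at -180, -53 and -7, and 17.7% of promoters held it. TTGCNNAA was in none of the 7 windows, and 9.57% of promoters held it. TGNGGT was found in Lyz2 and Ctsg (40.1% of promoters), TATAAA in Cebpa and Ctsg (12.4%) and CCAAT in Elane (33.8%). These matches describe letters and not binding.

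Over the 44 libraries the genes fell into 3 levels. Lyz2 had a median of 81.8 FPKM, with a range of 23.5 to 266, and Cebpb had a median of 77.1, with a range of 23.7 to 194. Cebpa (median 15.1 FPKM) and Cebpd (median 8.04 FPKM) were above 0 in all 44 libraries as well. Prtn3 (median 2.33 FPKM, highest 16.7) was listed at 0 in 11 libraries and Mpo (median 1.06 FPKM, highest 17.6) in 8. Elane, Ctsg and Cebpe made up the lowest level. Cebpb had the highest mean of the 9 genes at 1, 2, 4, 10, 12, 72 and 120 h, and Lyz2 at the other 9 time points.

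By the moderated F test of limma, 5 of the 6 tested members changed over the course, as did 56% of all tested genes. The exception was Lyz2 (adjusted p = 0.691). The smallest adjusted p was that of Cebpb (7.8e-06), which ranked 1758 of 13907. Counts of called genes among the 6 were read against the share of all tested genes called. Against 0 h, the times 0.5, 1, 2, 4 and 6 h gave 3, 2, 3, 4 and 4 members, beside 21.6%, 32.1%, 35%, 35% and 38.1% of all tested genes. The times 8, 10, 12, 24 and 48 h gave 3, 3, 4, 4 and 4 members, beside 39.6%, 41.5%, 41.9%, 43.3% and 38.4%. The times 72, 96 and 144 h gave 2, 1 and 2 members, beside 25.4%, 10.3% and 8.89%. The share of members was not tested against that of all genes. The direction divided by gene type, since each gene called lower before 144 h was Mpo or Prtn3 and each gene called higher was a C/EBP gene; this holds for the FPKM as deposited and not when libraries are scaled to a cell type, as described at the end.

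Genes of the feeder and of blood cells moved at the same time. The 24 stromal feeder genes, such as those of collagens and fibronectin, summed to 739 to 2515 FPKM in the libraries of 0 h. The ranges of 0.5, 6 and 144 h were 6469 to 8249, 9646 to 11063 and 2021 to 3580 FPKM. Lum, a defining gene of fibroblasts, was listed at 0 in all 44 libraries and Dcn in 43. The 18 general blood-cell genes, such as Ptprc and Coro1a, summed to 2276 to 3041 FPKM in the libraries of 0 h. The ranges of 6, 24 and 144 h were 849 to 914, 375 to 877 and 1769 to 2131 FPKM. The part of either cell type in the changes of the members was not tested. All 22 tested stromal genes were called higher at 1, 6, 24 and 72 h and 9 at 144 h. The blood-cell genes called lower numbered 17, 18, 18, 16 and 1 of 18 at these times. The B-lineage genes, which mark the intended path, were called higher for 1, 0, 1, 7 and 8 of 9 at 1, 6, 24, 72 and 144 h and lower for 2, 8, 8, 0 and 0. For all tested genes the shares called in either direction were 32.1%, 38.1%, 43.3%, 25.4% and 8.89% at these times.

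Mpo, the enzyme that makes hypochlorous acid from peroxide, fell against 0 h at each of the 7 time points from 4 to 48 h, in FPKM as deposited. Its FPKM at 0 h was 1.04, 17.6 and 11.5 in replicates 1, 2 and 3. At 24 h it was 0, 0.583 and 0.295, all below the lowest value at 0 h. The change at 24 h was -2.62 ± 0.72 (adjusted p = 0.00384). At 8, 10 and 48 h the libraries were also below those of 0 h, with changes of -2.52, -2.54 and -2.51. At 4, 6 and 12 h the values overlapped those of 0 h and the changes, -2.05, -2.03 and -2.49, were called. At 72 h Mpo stood at 1.34, 6.04 and 5.08 FPKM and at 96 h at 3.26, 8.76 and 4.13, which overlapped 0 h and were above the libraries of 24 h. The rise from 24 to 72 h was 1.87 ± 0.72 and was not called (adjusted p = 0.091). With runs of consecutive library codes as a block it was 1.82 and was called by limma (adjusted p = 0.0378). Only run 3 holds both times, with a difference of 2.23, so the block ties the other runs together through run 3 alone. Mpo was 4.38 FPKM in the library of 120 h, 3.18, 0.299 and 1.75 FPKM at 144 h and 0.67 FPKM at 168 h.

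Replicate 1 had the lowest Mpo at each of the 10 time points from 0 to 24 h, tied with replicate 3 at 12 h. It was listed at 0 from 4 to 48 h. Within runs of library codes that hold both time points, the differences from 0 to 6 h were -2.70 (run 1), -1.03 (run 2) and -2.37 (run 6), and those from 0 to 24 h were -1.03 (run 2) and -3.55 (run 6). Run 2 is that of replicate 1. With only the compared libraries in the fit, none of the 7 changes of Mpo was called, with adjusted p from 0.0642 (10 h) to 0.142 (6 h). Without replicate 2 at 0 h the changes of 4, 6, 8, 10, 12 and 48 h were -1.42, -1.41, -1.89, -1.91, -1.87 and -1.88, none of them called, while that of 24 h was -1.99 (adjusted p = 0.045). The call at 4 h was also lost without 0 h replicate 3 (-1.71) or 4 h replicate 1 (-1.59), and that at 6 h without 0 h replicate 3 (-1.69), 6 h replicate 1 (-1.57) or 6 h replicate 3 (-2.04). At 144 h Mpo was not called (-1.66, adjusted p = 0.16), but was without 0 h replicate 1 (-2.63) and without replicate 1 throughout (-3.01, adjusted p = 0.00137). With the replicate number as a block it was called as well (-1.66, adjusted p = 0.0399).

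Prtn3, a protease of the same granules, fell at 2 h and rose between 24 and 72 h, in FPKM as deposited. At 0 h it held 3.18, 6.72 and 12.0 FPKM, at 0.5 h 8.05, 6.45 and 4.95 FPKM and by 1 h 0, 2.83 and 7.11 FPKM. At 2 h the values were 1.15, 0 and 2.62, all below those of 0 h, and the change was -1.91 ± 0.63 (adjusted p = 0.0173). Prtn3 was called lower at each of the 7 time points from 2 to 24 h, with the libraries below those of 0 h each time. At 8 h it was listed at 0 in all 3 libraries (adjusted p = 0.000409). At 48 h it was 1.02, 1.91 and 1.96 FPKM, below 0 h and not called (-1.53, adjusted p = 0.0531). At 24 h it was 1.04, 0.891 and 0 FPKM, a change of -2.25 ± 0.63 (adjusted p = 0.00417). The calls at 2, 4 and 6 h were lost when single libraries were left out. At 2 h the change was -1.52 without 0 h replicate 3 and -1.42 without 2 h replicate 2, at 4 h it was -1.62 without 0 h replicate 3 and -1.58 without 4 h replicate 1, and at 6 h it was -1.76 without 6 h replicate 2. With only the compared libraries in the fit, 2 and 4 h were not called (adjusted p = 0.0599 and 0.0592) and 48 h was (adjusted p = 0.0447). The differences from 0 to 24 h were -1.03 in run 2 and -2.03 in run 6.

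At 72 h Prtn3 was 14.3, 11.1 and 3.33 FPKM and at 96 h 9.96, 16.7 and 5.26. All 3 libraries at 72 h were above those of 24 h, and the step was 2.57 ± 0.63 (adjusted p = 0.00944). Of the 6 tested genes, 2 were called from 24 to 72 h, both higher, against 7.6% of all tested genes called higher. Only run 3 holds both times, with 0 FPKM at 24 h and 3.33 at 72 h. With runs as a block the step was 1.93 and was not called (adjusted p = 0.0776). Leaving out 24 h replicate 3 gave 2.24 and leaving out 72 h replicate 1 gave 2.20, neither called. With only the compared libraries it was not called (adjusted p = 0.172). Prtn3 held 5.58 FPKM at 120 h and 5.12 FPKM at 168 h. The libraries of 144 h held 8.70, 4.57 and 6.43 FPKM, and the change from 72 to 144 h was -0.33 ± 0.63.

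Elane and Ctsg were near the limit of what the table records. Elane was above 0 in 2 of the 44 libraries, with 1.19 FPKM in 72 h replicate 3 and 1.18 FPKM in 96 h replicate 1. Ctsg was above 0 in 5, with 0.884 FPKM in 0.5 h replicate 2, 0.27 in 6 h replicate 3, 0.82 in 10 h replicate 3, and 2.13 and 1.01 in 96 h replicates 1 and 3. Neither reached 1 FPKM in 3 libraries, so neither was tested. Elane is the neighbour of Prtn3, whose highest value was 16.7 FPKM. Their longest protein-coding transcripts shared none of the 50-base words of Elane, so no read of that length could match both exactly. Matches with mismatches and other read lengths were not examined. In the table, 36.9% of genes had a highest value at or below that of Elane and 41.9% one at or below that of Ctsg.

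**Figure D1:**
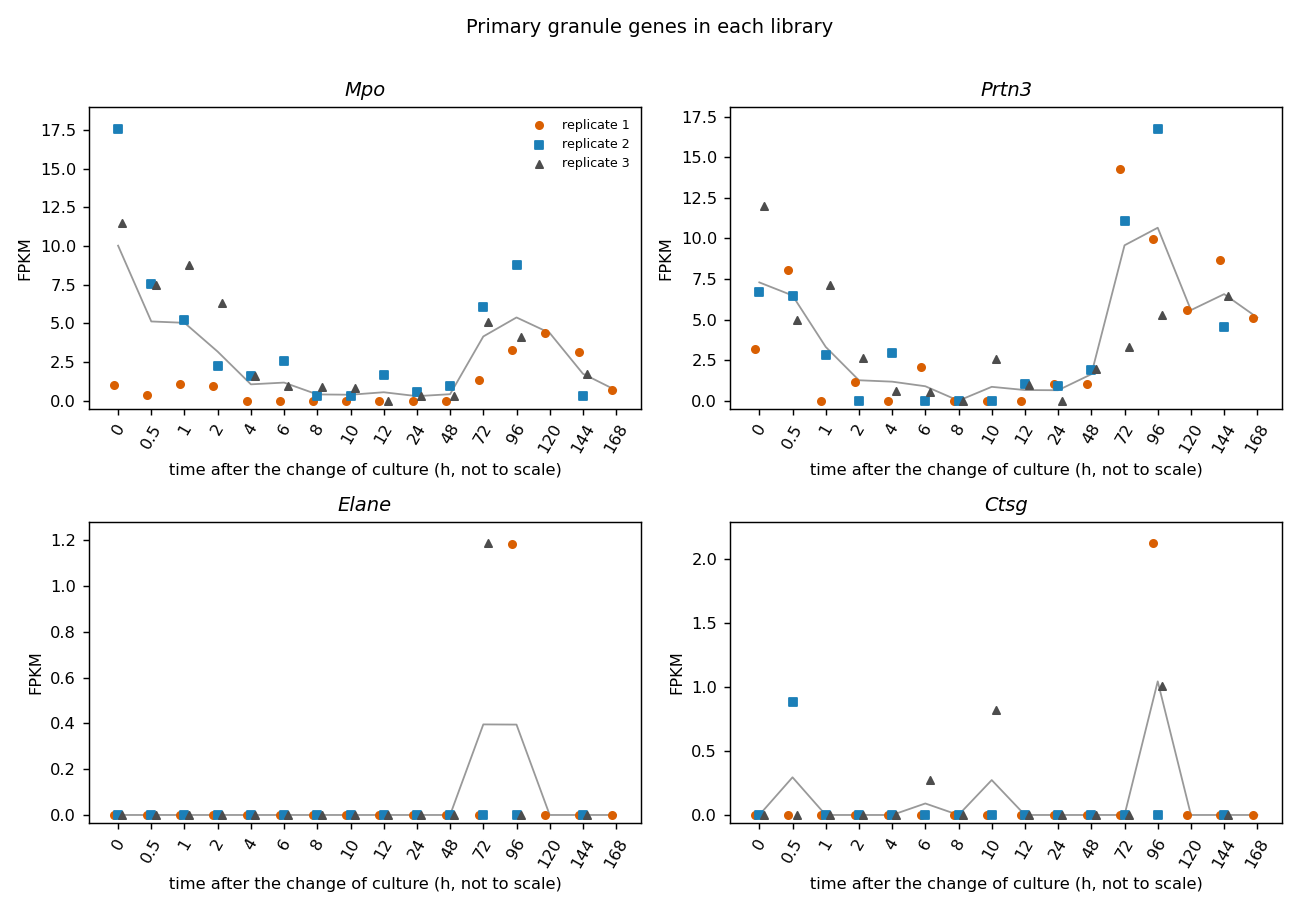
FPKM of Mpo, Prtn3, Elane and Ctsg (vertical axes, linear, each with its own range) by time in hours (horizontal axes, equal steps, not to scale). Each point is 1 library, with the colour and shape giving its replicate number (the single libraries at 120 and 168 h carry the number 1), and the line joins the means. Mpo and Prtn3 are low from 4 to 48 h and higher at 72 and 96 h, and Mpo of replicate 1 lies at the bottom from 0 to 24 h. Elane and Ctsg stay at 0 in 42 and 39 of the 44 libraries.

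Other genes of primary granules and promyelocytes moved in both directions. Of 12 in the list, Ms4a3 and Fcnb were listed at 0 in all 44 libraries and 10 were tested. Those called lower numbered 4, 5, 6, 3 and 1 at 1, 6, 24, 72 and 144 h and those called higher 2, 1, 1, 2 and 1. Calls in either direction took in 32.1%, 38.1%, 43.3%, 25.4% and 8.89% of all tested genes at these times. The median change of the list at 24 h was -1.81, beside -0.06 over all tested genes; scaled to the blood-cell genes it was 0.01, beside 1.86. Ctsc, the protease that activates the granule serine proteases, went from 58.6 ± 17.9 FPKM (SD, n = 3) at 0 h to 12.3 ± 9.21 at 24 h (change -2.43, adjusted p = 4.53e-05) and was not called at 72 h (-0.99, adjusted p = 0.107). Cd63, a membrane protein of granules and lysosomes that many cell types express, rose from 161 ± 98.9 to 1168 ± 303 FPKM at 24 h (2.99, adjusted p = 2.49e-09). Hp, which encodes haptoglobin, rose from 11.3 ± 2.45 to 63.6 ± 24.3 FPKM at 72 h (2.34, adjusted p = 0.0183). Its list also holds Nkg7 and Srgn, which lymphoid cells express too.

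Genes of later granules and of mature neutrophils were mostly low. Of 14, Ltf was above 0 in 6 libraries, Ngp in 2, Chi3l3 in 1, S100a8 in 9 and S100a9 in 1, with no value above 9.02 FPKM. Of the 9 tested, those called higher numbered 3, 3, 1, 4 and 1 at 1, 6, 24, 72 and 144 h and those called lower 1, 1, 2, 0 and 0. Beside them, 32.1%, 38.1%, 43.3%, 25.4% and 8.89% of all tested genes were called in either direction. Anxa1, annexin A1, rose from 103 ± 37.6 FPKM at 0 h to 558 ± 35.2 at 6 h (2.48, adjusted p = 2.49e-11). Lcn2, lipocalin-2, rose from 0.669 ± 0.764 to 12.1 ± 5.05 FPKM at 6 h (3.0, adjusted p = 6.96e-05). Mmp9, a gelatinase, rose from 0.315 ± 0.195 to 12.8 ± 3.89 FPKM at 72 h (3.35, adjusted p = 0.000331). These 3 genes are not limited to neutrophils, and the stromal sum moved with them. Its part in the result was not tested. Camp, also of this list, was above 0 in 40 libraries, with a highest value of 20.7 FPKM. From 2.34 ± 2.03 FPKM at 0 h it rose to 12.3 ± 7.14 at 1 h (2.15, adjusted p = 0.00357). It was also called higher at 6 h (2.14, adjusted p = 0.00268) and not at 24 h (0.96, adjusted p = 0.169).

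Lyz2 lay between 35.3 and 123 FPKM in the libraries from 0 to 72 h. At 0 h it was 109, 100.4 and 90.4 FPKM. At 24 h the values were 108, 73.2 and 35.3 FPKM, those of 48 h 89.5, 88.9 and 119.0 FPKM and those of 72 h 69.3, 55.2 and 92.2 FPKM. The libraries of 24, 48 and 72 h overlapped those of 0 h, and no change against 0 h was called at any of the 13 later time points. With only the compared libraries in the fit, 10 h and 12 h were called (-0.48 each, adjusted p = 0.0378 and 0.0227). The lowest mean of a replicated time point was 51.8 ± 21.2 FPKM (SD, n = 3), at 96 h, where the 3 libraries were below those of 0 h (-1.0 ± 0.45, adjusted p = 0.164). The single libraries at 120 and 168 h held 23.5 and 41.4 FPKM.

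At 144 h the libraries of Lyz2 stood apart, with 266, 25.8 and 44.3 FPKM. Replicate 1 held the highest of the 44 values and the others lay below all libraries of 0 h. The change was -0.55 ± 0.45 (adjusted p = 0.538) with the 3 libraries. Without 144 h replicate 1 it was -1.53 ± 0.32 (adjusted p = 0.00211), and the step from 72 to 144 h went from -0.06 to -1.04 (adjusted p = 0.0395). The same library was the highest of the 3 in 10 of 14 monocyte and macrophage genes. That count includes Lyz1, whose reads cannot be split from those of Lyz2 with certainty. Csf1r, the receptor for the macrophage growth factor, had 8.11 FPKM there and 0.953 and 0.894 in replicates 2 and 3, and Cd14 had 6.06 there and 0 in both others. Ly6c2, Ly86, Irf8 and Klf4 were not highest there. The part of such cells in the result was not tested. Of 9 genes of mast cells, basophils and eosinophils, 4 were tested and 0 called by limma at 1, 6, 24, 72 or 144 h, with 1 at an unadjusted p under 0.05, at 72 h.

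Lyz1, the lysozyme gene of Paneth cells was a close copy of Lyz2 in sequence. Over the 44 libraries the FPKM of Lyz2 was 4.84 to 21.6 times that of Lyz1, with a median of 7.18. At 144 h Lyz1 was 39.5, 4.29 and 3.87 FPKM, also highest in replicate 1. Aligned bases of the transcripts were 96.0% identical and 15.4% of the 50-base words of Lyz2 also occur in Lyz1, so the split of reads between this pair is uncertain. The lists hold 14 monocyte and macrophage genes in all. Of these, 5, 6, 7, 5 and 0 were called lower at 1, 6, 24, 72 and 144 h and 2, 1, 0, 0 and 0 higher. Among all tested genes, 32.1%, 38.1%, 43.3%, 25.4% and 8.89% were called in either direction at these times. At an unadjusted p under 0.05 in limma, 1 of the 14 was lower and 3 were higher at 144 h. Irf8, a factor for the monocyte path that B cells also express, fell from 51.0 ± 7.43 to 6.57 ± 4.70 FPKM at 24 h (-2.95, adjusted p = 3.19e-08). Scaled to the blood-cell genes, 6 of the 14 were called higher and 1 lower at 24 h, with a list median of 0.70, where 79.2% of all tested genes were called higher and their median was 1.86.

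**Figure D2:**
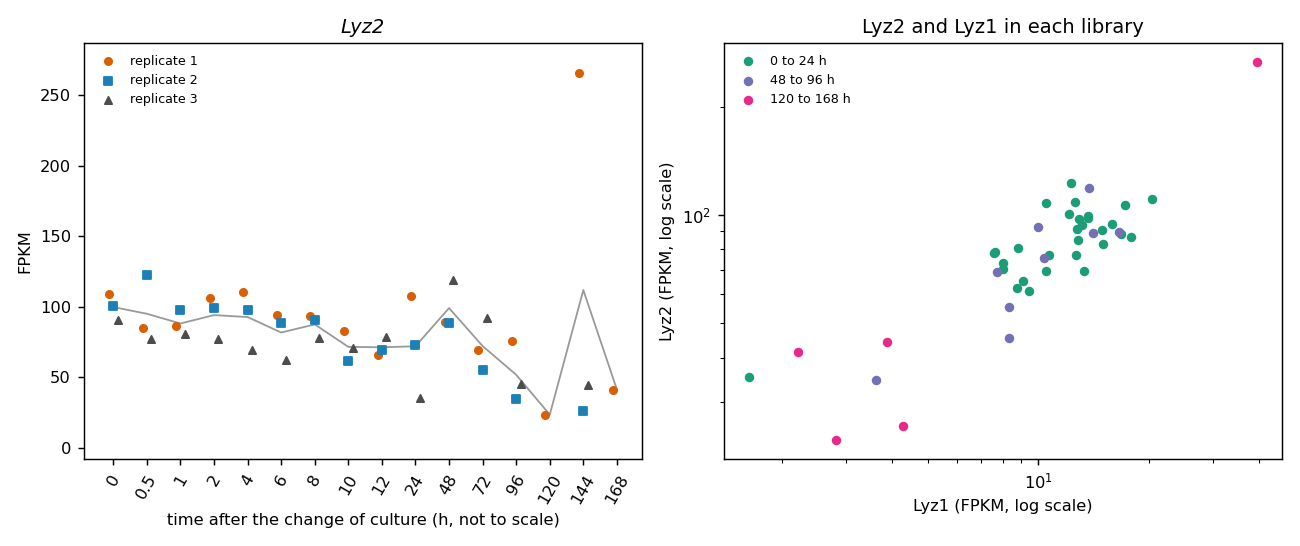
Left, FPKM of Lyz2 (linear axis) by time in hours (equal steps, not to scale), 1 point per library, coloured by replicate number, with a line through the means. Right, Lyz2 against Lyz1 in each of the 44 libraries, FPKM on log axes, coloured by time. The library of 144 h replicate 1 lies alone at 266 FPKM of Lyz2 and 39.5 of Lyz1.

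Among the C/EBP genes, Cebpb had the highest level and was called higher from 0.5 to 72 h in FPKM as deposited. Scaled to the stromal feeder genes, its change was below 0 at each of these times. At 2 h that change was not called (-0.19, adjusted p = 0.473), beside a median of -1.91 over all genes. At 0 h the libraries held 28.5, 28.3 and 38.0 FPKM. At 0.5 h they held 94.2, 80.9 and 65.2 FPKM, then 140, 108 and 88.9 FPKM by 1 h and 194, 165 and 108 FPKM by 2 h. All libraries from 0.5 to 72 h were above those of 0 h. The change was 1.31 ± 0.30 at 0.5 h (adjusted p = 0.00145) and 2.23 ± 0.30 at 2 h (adjusted p = 6.94e-07). Within runs, the differences from 0 to 2 h were 1.48 (run 1), 2.72 (run 2) and 2.50 (run 6). After 2 h it lay between 62.6 and 99.1 FPKM by mean up to 72 h, with 62.6 ± 9.40 (SD, n = 3) at 24 h.

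Cebpb was back near 0 h at the end. At 72 h it was 46.4, 65.3 and 145 FPKM, and the change of 1.26 lost its call without 72 h replicate 3 (0.80, adjusted p = 0.0513) or with only the compared libraries (adjusted p = 0.106). At 144 h it was 45.2, 23.7 and 42.9 FPKM, which overlapped 0 h. The step from 72 to 144 h was -1.06 ± 0.30 (adjusted p = 0.019). Without 72 h replicate 3 it was -0.60 and without 144 h replicate 2 it was -0.78, neither called, nor was it called with only the compared libraries (adjusted p = 0.297). Within runs 3, 4 and 5 the differences were -1.73, -0.04 and -1.43. The single libraries of 120 and 168 h held 59.8 and 30.8 FPKM.

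Cebpd was the lowest of the tested C/EBP genes at 0 h and had the largest called rise of the 6 tested genes, at 2 h, in FPKM as deposited. Scaled to the stromal feeder genes, Cebpd had a change below 0 at 0.5, 1, 4 to 24 and 48 h, not called at 0.5, 4 and 48 h. It was 2.37, 3.22 and 2.55 FPKM at 0 h and 10.7, 15.4 and 9.21 at 0.5 h, a change of 1.76 ± 0.35 (adjusted p = 0.000366). At 1 h it was 10.3, 7.03 and 4.12 FPKM, and at 2 h 38.9, 22.8 and 18. The libraries of 2 h were above those of 1 h and of 0 h. The change at 2 h was 2.83 ± 0.35 (adjusted p = 2.4e-07). Within runs 1, 2 and 6 the differences from 0 to 2 h were 2.42, 3.57 and 2.50.

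The means of Cebpd were 11.8 FPKM at 0.5 h and 7.14 FPKM at 1 h, a step of -0.70 ± 0.35 that was not called (adjusted p = 0.87). No member was called by limma in that step, nor from 2 to 4 h or 24 to 48 h, where 0.115%, 1.1% and 0.0575% of all genes were. At an unadjusted p under 0.05 the counts were 0, 2 and 2 of 6. With runs as a block, Cebpa and Cebpb were called from 24 to 48 h (1.97 and 1.04, adjusted p = 6.97e-05 and 0.0269). Only run 3 holds both times, with differences of 2.15 for Cebpa and 0.66 for Cebpb. The blocked step thus ties the other runs together through run 3 alone. From 1 to 2 h Cebpd rose by 1.76 ± 0.35 (limma adjusted p = 0.00767). It was the only 1 of the 6 called, in a step that called 0.87% of all genes. This step was chosen after the values were seen, as were those from 0.5 to 1, 2 to 4 and 24 to 48 h. The differences in that step were 1.89, 1.82 and 1.57 in runs 1, 2 and 6. The call was lost without 1 h replicate 3 (1.46) or 2 h replicate 1 (1.46), when scaled to the blood-cell genes (1.86, adjusted p = 0.0978) and with only the compared libraries (adjusted p = 0.206). It was also lost when all time points were fitted without replicate 1 (1.73, adjusted p = 0.0875).

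Cebpd rose from 24 to 72 h by 1.06 ± 0.35 (adjusted p = 0.0496), a call lost without 24 h replicate 2 (1.16) or 3 (0.86) or without 72 h replicate 1, 2 or 3 (1.15, 1.11 and 0.92). With blood-cell scaling this step was 0.0955 (adjusted p = 0.875), beside a median of -0.86 over all genes, and scaled to the stromal feeder genes it was 0.96 (adjusted p = 0.0746). With only the compared libraries it was not called either (adjusted p = 0.192). Cebpd was 5.28, 5.13 and 5.09 FPKM at 8 h, where the change was not called (0.74, adjusted p = 0.0977), nor was that at 10 h (0.69, adjusted p = 0.12). At 48 h it was 11.4, 11.4 and 17.1 FPKM and at 72 h 12.9, 13.8 and 18.2, above all libraries of 0 h. The changes were 1.93 and 2.1 ± 0.35 (adjusted p = 5.26e-05 and 3.81e-05). At 0.5, 2, 4, 48, 72 and 96 h no single left-out library of the time points compared ended the call. Of the changes of 1, 6, 12, 24 and 144 h (1.07, 1.04, 0.96, 1.03 and 1.11) each lost its call without at least 1 library. The lowest values after leaving out a library were 0.80 without 1 h replicate 1, 0.94 without 6 h replicate 2, 0.68 without 12 h replicate 2, 0.93 without 24 h replicate 1 and 0.71 without 144 h replicate 1. With only the compared libraries, 1, 12, 96 and 144 h lost their calls (adjusted p = 0.0581, 0.0908, 0.0645 and 0.315), and 8 and 10 h gained them (adjusted p = 0.0156 and 0.0272). At 144 h Cebpd was 13, 2.72 and 8.78 FPKM and overlapped 0 h.

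Cebpa, the factor of granulocyte and monocyte commitment, was called higher at 0.5 and 48 h in FPKM as deposited, and lower at both times when scaled to the stromal feeder genes (-1.15 and -1.58). It was 11.2, 21.4 and 15.1 FPKM at 0 h and 39.8, 45.5 and 18.3 at 0.5 h, where the lowest library lay within the range of 0 h. The change was 1.02 ± 0.35 (adjusted p = 0.0361). It was 0.81 without 0 h replicate 1, 1.01 without 0 h replicate 3, 0.87 without 0.5 h replicate 1 and 0.78 without 0.5 h replicate 2, none of them called, nor was it with only the compared libraries (adjusted p = 0.136). Within runs 1, 2 and 6 the differences were 0.27, 1.74 and 1.05. From 1 to 24 h no change was called, and the means went from 23.5 ± 6.67 FPKM (SD, n = 3) at 1 h to 11 ± 3.88 at 8 h and 13.3 ± 5.43 at 24 h.

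At 48 h Cebpa was 24.7, 29.5 and 37.5 FPKM, above the libraries of 0 h and of 24 h. The change against 0 h was 0.93 ± 0.35 (adjusted p = 0.0364). It was 0.72 without 0 h replicate 1, 0.91 without 0 h replicate 3, 0.94 without 48 h replicate 2 and 0.77 without 48 h replicate 3, none of them called. The step from 24 to 48 h, 1.20 ± 0.35, was not called (adjusted p = 0.203), except with runs as a block, as given above. At 72 h Cebpa was 15.4, 21.2 and 41.9 FPKM and at 96 h 7.66, 14.2 and 12.9.

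At the end of the course Cebpa was at its lowest mean. At 144 h it was 5.63, 6.03 and 6.40 FPKM, below each library of 0 and 72 h, and at 168 h 5.47 FPKM. From 72 to 144 h it fell by 1.83 ± 0.35 on the log2 scale (adjusted p = 0.00134), and the differences within runs 3, 4 and 5 were -2.53, -1.31 and -1.66. The step was not called when scaled to the stromal feeder genes (-0.58, adjusted p = 0.0765), with their mean as a covariate (-1.08, adjusted p = 0.541) or with only the compared libraries in the fit (adjusted p = 0.111). Of the 6 tested genes, 2 were called lower in this step, Cebpa and Cebpb, against 7.86% of all tested genes. Against 0 h the change was -1.22 ± 0.35 (adjusted p = 0.0249). No run of library codes holds both 0 and 144 h, and with runs as a block the change was -0.42 (adjusted p = 0.451). It lost its call without 0 h replicate 2 (-1.0) or without 144 h replicate 1, 2 or 3 (-1.18, -1.22 and -1.26), or with only the compared libraries (adjusted p = 0.0913).

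Cebpe was listed at 0 in 42 of 44 libraries, with 0.632 FPKM in 10 h replicate 3 and 0.685 in 72 h replicate 2. In the table, 32.0% of genes had a highest value at or below it. From 6 to 24 h none of the 6 tested genes was called by limma, where 2.08% of all tested genes were, and none had an unadjusted p under 0.05.

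**Figure D3:**
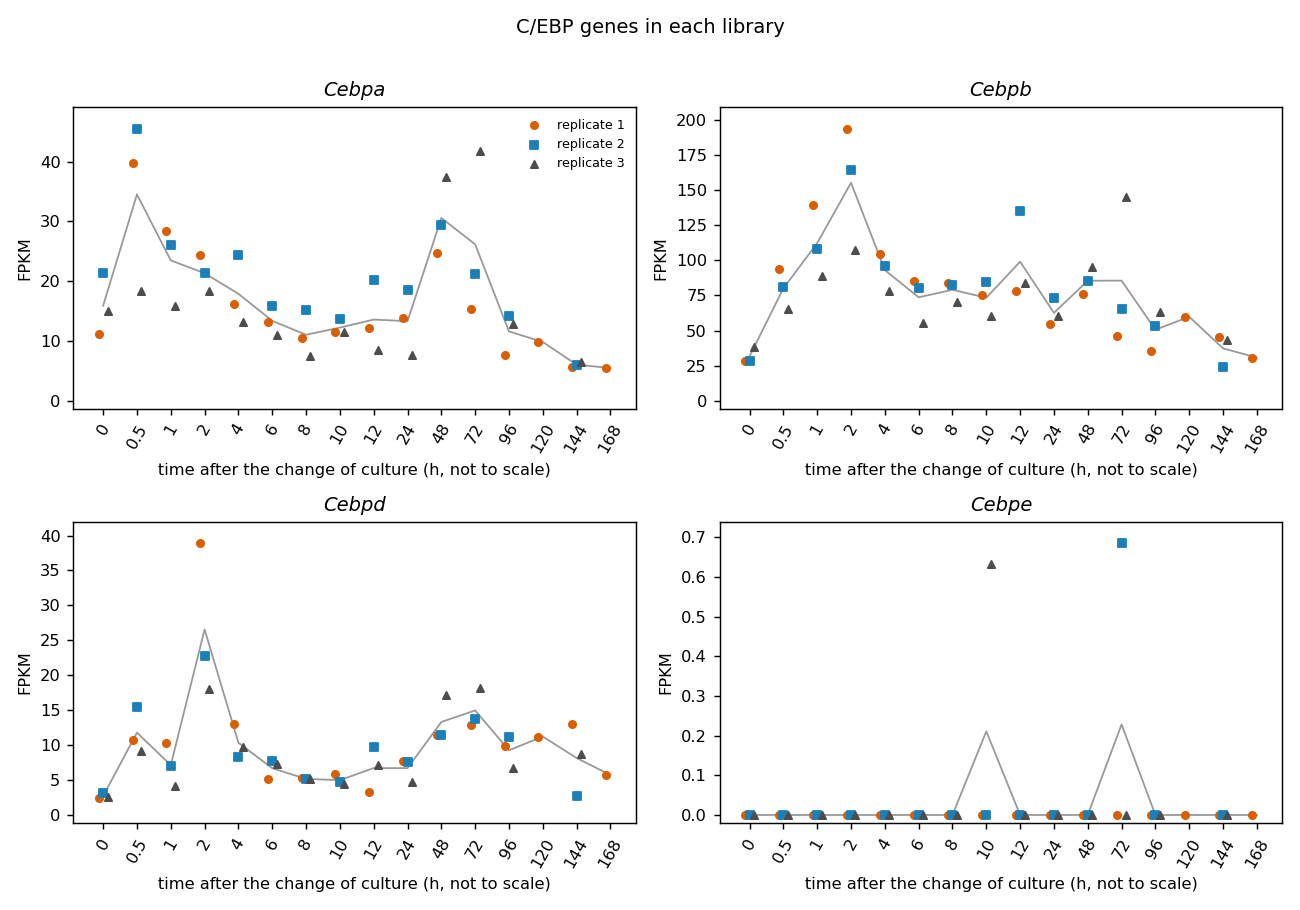
FPKM of Cebpa, Cebpb, Cebpd and Cebpe (vertical axes, linear, each with its own range) by time in hours (horizontal axes, equal steps, not to scale). Each point is 1 library, with the colour and shape giving its replicate number (the single libraries at 120 and 168 h carry the number 1), and the line joins the means. Cebpb and Cebpd peak at 2 h, and Cebpa is high at 0.5 and 48 h and lowest at 144 and 168 h, in FPKM as deposited. Scaled to the stromal feeder genes, Cebpa was called lower at 0.5 and 48 h than at 0 h. Cebpb at 2 h was then not called (-0.19, limma adjusted p = 0.473), beside a median of -1.91 over all genes.

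Genes that act with C/EBP factors were mixed. Of 13 tested, those called higher numbered 5, 4, 3, 3 and 1 at 1, 6, 24, 72 and 144 h and those called lower 3, 6, 6, 2 and 1. In either direction, 32.1%, 38.1%, 43.3%, 25.4% and 8.89% of all tested genes were called at these times. Trib1, a pseudokinase that directs C/EBP-alpha to degradation, rose from 1.81 ± 1.25 FPKM (SD, n = 3) at 0 h to 44.0 ± 4.76 at 1 h (4.08 ± 0.28, adjusted p = 2.12e-12) and stood at 10.3 ± 0.331 at 6 h. Ddit3, a C/EBP relative of the stress response that dimerizes with the others, rose from 22.8 ± 8.79 to 113 ± 12.6 FPKM at 6 h (2.31, adjusted p = 2.15e-06). Csf2rb, a subunit of the receptor for GM-CSF, fell from 10.6 ± 1.28 to 2.09 ± 0.837 FPKM at 24 h (-1.95, adjusted p = 3.19e-08). The gene of PU.1, listed as Sfpi1, went from 67.8 ± 13.7 to 20.3 ± 10.2 FPKM at 24 h (-1.82, adjusted p = 7.42e-05) and was 52.7 ± 2.33 at 144 h (not called, -0.34). These changes are as deposited, where the blood-cell genes had a median of -2.16 at 24 h. Scaled to the blood-cell genes, 9 of the 13 were called higher and 0 lower at 24 h, beside 79.2% of all genes called higher. The list median was then 1.48, beside 1.86. Stromal scaling called all 13 lower at 24 h, beside 83.4% of all genes.

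Genes known as targets of C/EBP-beta and C/EBP-delta outside blood were mostly higher. They include Hp, also in the primary granule list above, and Lcn2, also in the later granule list, so the lists are not separate. Of 12 tested, 11, 10, 7, 11 and 3 were called higher at 1, 6, 24, 72 and 144 h. By limma 0 were lower, also at an unadjusted p under 0.05. The shares of all tested genes called in either direction were 32.1%, 38.1%, 43.3%, 25.4% and 8.89%. The median change at 1 h was 1.94, beside -0.08 over all tested genes. The chemokine genes Ccl2 and Cxcl1 rose at 1 h from 82.8 ± 47.1 to 809 ± 142 FPKM (3.41, adjusted p = 4.41e-10) and from 5.85 ± 3.31 to 89.1 ± 22.0 (3.79, adjusted p = 2.14e-09). C3, of the complement system, rose from 5.31 ± 3.15 to 70.0 ± 18.6 FPKM at 72 h (3.56, adjusted p = 0.000297). Scaled to the stromal feeder genes, 2 of the 12 were called higher at 1 h, with a median of 0.01, beside -1.90 over all genes. Stromal cells express these genes, and the part of the feeder in their rise was not tested.

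The direction of Lyz2, Cebpa, Cebpb and Cebpd against 0 h depended at some times on what the libraries were scaled to, while the changes of Mpo and Prtn3 that were called as deposited stayed below 0 on both scales. Multiplying each library by 1 factor, set from the mean log2(FPKM + 1) of the 18 blood-cell genes, moved the median change of all genes from -0.06 to 1.86 at 24 h, that at 2 h from -0.11 to 0.88, and the share of all genes called higher at 24 h to 79.2%. On this scale Lyz2 was called higher at 2, 4, 6, 8, 10, 12, 24 and 48 h (1.54 ± 0.45 at 24 h, adjusted p = 0.00234). Cebpa was called higher at 6, 10, 12 and 24 h, where its change as deposited was below 0 (1.80 ± 0.44 at 24 h, adjusted p = 0.000433). It was also called higher at 1, 2, 4 and 72 h (1.66, 1.58, 1.49 and 1.66), where it was not called as deposited. Cebpb and Cebpd kept their direction, with 3.40 and 3.97 at 2 h. Mpo was called lower only at 12 h (-2.14, adjusted p = 0.0458), and its change at 24 h was -1.82 (adjusted p = 0.0829). Prtn3 at 24 h was -1.50 (adjusted p = 0.131), and 8 h, where it is listed at 0, was its only called time.

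Scaled in the same way to the 22 tested stromal feeder genes, the median change of all genes at 24 h was -1.97 and 83.4% of all genes were called lower. Mpo, Prtn3, Lyz2 and Cebpa were then called lower at 2, 12 and 24 h. Cebpb turned to -0.19 at 2 h (adjusted p = 0.473) and to -1.56 at 24 h (adjusted p = 4.82e-07). Cebpd kept a higher value at 2 h, 0.56 ± 0.29, that was not called (adjusted p = 0.0681), and turned to -0.87 at 24 h (adjusted p = 0.00572).

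The same contrast can be read from levels. Per 1000 FPKM of the summed blood-cell genes, the range of Cebpb (lowest to highest library) was 9.30 to 16.7 at 0 h and 72.3 to 179 by 2 h. The range of Lyz2 was 33.0 to 39.7 at 0 h and 94.1 to 123 by 24 h. The range of Prtn3 was 1.15 to 5.26 at 0 h, 0 to 1.35 by 24 h and 3.28 to 9.01 by 72 h. Per 1000 FPKM of the summed stromal genes, Cebpb was 15.1 to 38.5 at 0 h, 18.3 to 21.9 at 2 h and 5.71 to 8.12 at 6 h. Cebpd per 1000 stromal FPKM was 1.01 to 3.21 at 0 h, 2.53 to 4.39 at 2 h and 0.484 to 0.75 at 6 h.

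**Figure D4:**
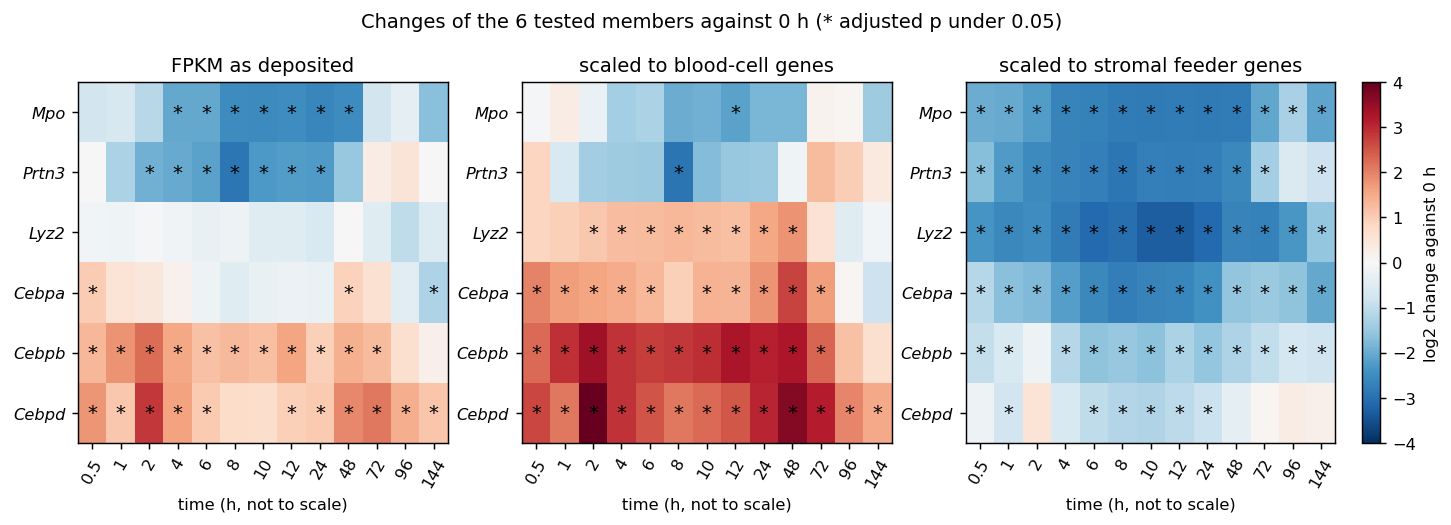
Change of log2(FPKM + 1) against 0 h for the 6 tested genes (rows) at the 13 later replicated time points in hours (columns, equal steps, not to scale), as deposited, scaled to the 18 blood-cell genes and scaled to the 22 stromal feeder genes. Red is higher, blue is lower, and a star marks a limma adjusted p under 0.05. Lyz2 and Cebpa are near 0 in the left panel at most times and blue in the right panel. In the middle panel both are red from 2 to 48 h, and Cebpa is red and starred at 1 and 72 h too (1.66 each). Cebpb is red in the left and middle panels and blue in the right panel.

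Over the 14 time-point means, the genes most alike to each member were found by Pearson correlation of log2(FPKM + 1), given as a description, since the points share libraries and the cell makeup of the cultures. Mpo was most like Rab44 (r = 0.9425), Srgn (0.9382) and Chd2 (0.9353), and Prtn3 most like Camk2b (0.9725), Pllp (0.958) and Mxi1 (0.9558). Lyz2 was most like Lyz1 (0.8494), 1810020D17Rik (0.8351) and Eepd1 (0.8212). Cebpa was most like Limch1 (0.9305), Comp (0.925) and Ptgfr (0.9214), Cebpb most like Nr1d2 (0.9587), Sphk1 (0.9522) and Ahnak (0.9392), and Cebpd most like Igf2bp2 (0.8888), Ndrg1 (0.8623) and Sema3b (0.8412). Between members, Mpo and Prtn3 had r = 0.807 and Cebpb and Cebpd r = 0.614. With the mean of the blood-cell genes, Mpo, Prtn3 and Lyz2 had r = 0.839, 0.799 and -0.014. Cebpa, Cebpb and Cebpd had -0.128, -0.578 and -0.138 there. With the mean of the stromal genes, Mpo, Prtn3 and Lyz2 had r = -0.699, -0.740 and 0.083, and Cebpa, Cebpb and Cebpd had 0.249, 0.785 and 0.318.

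In order of their 14 time-point means, neighbouring time points overlapped in FPKM in all 13 places for Mpo, Prtn3, Lyz2 and Cebpb. Cebpa had 1 place without overlap, between 8 h (11) and 144 h (6.02 FPKM), and Cebpd 1, between 10 h (4.98) and 0 h (2.71 FPKM).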

How the data were processed

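RNA-seq values were read from a single table of FPKM for 23234 genes in 44 libraries, deposited by the authors. Per the submitters' processing notes, TopHat2 2.1.0 and Cufflinks 2.1.1 were used with the genome build mm9. By its name the table holds corrected values; the correction is not given in the sources used here. Sequencing depth is unknown.

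limma 3.58.1 in R 4.3.3 was fitted to log2(FPKM + 1) of the 42 libraries of replicated time points, with 1 mean per time point and a mean-variance trend. Genes with at least 1 FPKM in 3 libraries were tested (13907), and p-values were adjusted over all of them by the Benjamini-Hochberg method. Single libraries at 120 and 168 h were not fitted. The fit was tested on simulated data with independent normal errors, without library-code runs or shifts in cell makeup. Changes were planted only in genes well above 0 at 0 h, so genes with many values at 0 were not covered. All 9 members are named, and for each list the genes with the largest called changes. Other genes named (Lyz1, Csf1r, Cd14, Camp and the gene of PU.1, and those at 0) were chosen after their values were seen. The members and lists were chosen with earlier results of these data known. Replicates of a number do not come from a stated shared culture. Runs are stretches of consecutive library codes (6 in all), which the labels do not call batches.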

Additional observations from a re-analysis of the deposited data

How the results depend on the processing

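The calls against 0 h depended most on scaling to a cell type. Scaled to the stromal feeder genes, the sign turned for Cebpa at 0.5 h (-1.15), 1 h (-1.67), 2 h (-1.76), 4 h (-2.21), 48 h (-1.58) and 72 h (-1.48). It turned for Cebpb at 0.5 h (-0.95), 1 h (-0.61), 2 h (-0.19), 4 h (-1.15), 6 h (-1.60), 8 h (-1.50), 10 h (-1.64), 12 h (-1.26), 24 h (-1.56), 48 h (-1.24), 72 h (-0.97), 96 h (-0.70) and 144 h (-0.81), and from 72 to 144 h (0.16). It turned for Cebpd at 0.5 h (-0.20), 1 h (-0.75), 4 h (-0.59), 6 h (-1.0), 8 h (-1.17), 10 h (-1.20), 12 h (-1.04), 24 h (-0.87) and 48 h (-0.36), for Prtn3 at 72 h (-1.36) and for Lyz2 from 72 to 144 h (1.15). Scaled to the blood-cell genes, it turned for Lyz2 at 2 h (1.08), 4 h (1.24), 6 h (1.28), 8 h (1.34), 10 h (1.28), 12 h (1.20), 24 h (1.54) and 48 h (1.79) and for Cebpa at 6 h (1.32), 10 h (1.38), 12 h (1.36) and 24 h (1.80). With the stromal mean as a covariate, it turned for Cebpa at 0.5 h (-0.38) and 48 h (-0.71), for Cebpb at 0.5 h (-0.41), 1 h (-0.0257), 4 h (-0.51), 6 h (-0.96), 8 h (-0.85), 10 h (-0.99), 12 h (-0.58), 24 h (-0.98), 48 h (-0.61) and 72 h (-0.44), and for Cebpd at 12 h (-0.0587). None of these 13 changes with the covariate was called by limma (adjusted p from 0.433 to 0.999). Among the turns with stromal scaling, those of Cebpb at 2 h and from 72 to 144 h were not called. Nor were those of Cebpd at 0.5, 4 and 48 h. The cause was not tested.

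The number of the 6 tested genes called was 2 at 1 h and became 1 without replicate 1 throughout, at an adjusted p under 0.01 or with only the compared libraries, 6 with stromal scaling and 0 with the covariate. At 6 h the 4 calls became 2 at 0.01 and 0 with the covariate, and at 24 h the 4 became 0 with the covariate. With stromal scaling, all 3 tested granule genes and all 3 tested C/EBP genes were called lower at 6 and at 24 h. With blood-cell scaling, 1 granule gene (Lyz2) and 3 C/EBP genes were called at each of these times, all of them higher. At 72 h the 2 became 1 with only the compared libraries, 5 with stromal scaling and 0 with the covariate. At 144 h the 2 became 0 at 0.01, with only the compared libraries or with library-code runs as a block. They became 1 with no filter, quantile normalization, blood-cell scaling or the covariate, and 5 with stromal scaling. Without replicate 1 throughout, Cebpa and Cebpd lost their calls at 144 h (-1.39 and 0.64, limma adjusted p = 0.142 and 0.439). Mpo and Lyz2 were called lower instead (-3.01 and -1.47, adjusted p = 0.00137 and 0.0188). In the step from 24 to 72 h that fit called Mpo (2.19, adjusted p = 0.0226) and not Prtn3 or Cebpd. From 24 to 72 h the 2 became 1 without replicate 1, at 0.01, with median-ratio scaling, no filter, no trend, a pseudocount of 0.5, quantile normalization or either cell-type scaling, 0 with only the compared libraries or a pseudocount of 0.1, and 4 with runs as a block. From 72 to 144 h the 2 became 4 without replicate 1, 1 at 0.01 or with stromal scaling, and 0 with only the compared libraries or the covariate. Of all tested genes, stromal scaling called 83.7%, 86.7%, 84.7%, 83% and 67.4% at 1, 6, 24, 72 and 144 h. In the steps from 24 to 72 h and from 72 to 144 h it called 1.78% and 67%. Blood-cell scaling called 71.6%, 80.2% and 5.86% at 6, 24 and 144 h and 52.5% from 24 to 72 h. Leaving out libraries gave 5 to 6 calls by the F test, 1 to 3 at 1 h, 2 to 4 at 6 h, 3 to 4 at 24 h, 1 to 2 at 72 h, 0 to 2 at 144 h, 0 from 6 to 24 h, 0 to 2 from 24 to 72 h and 1 to 4 from 72 to 144 h. The fit without replicate 1 was chosen after seeing the data, as were the steps from 0.5 to 1, 1 to 2, 2 to 4 and 24 to 48 h.

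With the replicate number as a block, the counts were 2, 4, 4, 2 and 3 at 1, 6, 24, 72 and 144 h, 0, 3 and 2 in the 3 later steps and 5 by the F test. Only from 1 to 2 h did all 3 pairs of same-numbered libraries deviate together with a correlation over 0.1 (0.126, 0.159 and 0.172). There Cebpd stayed called (adjusted p = 0.00755). Without counts, depth sets no stated limit on low values such as those of Elane, Ctsg and Cebpe.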
